A study of Mus musculus with 11 samples.

Results

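NF-kB is a family of transcription factors that cells hold inactive in the cytoplasm and release when receptors for tumour necrosis factor (TNF), interleukin-1 or microbial products are engaged. Receptor-bound adaptors activate the IkB kinase complex, the kinase marks the inhibitory IkB proteins for destruction, and the freed Rel-family dimers enter the nucleus and bind kappaB sites at target genes. Several of the strongest targets, among them IkB-alpha and A20, are inhibitors of the pathway itself, so that transcription of the inhibitors is part of the response. In lung fibroblasts the targets include adhesion molecules, a mitochondrial superoxide dismutase, colony-stimulating factors and acute-phase proteins.

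The 36 genes described here cover these roles, without chemokines and, apart from the colony-stimulating factors Csf1 and Csf2, without cytokines. They were chosen by symbol from knowledge of the pathway, with earlier results of these data known. Shares of members set against all genes are therefore descriptive and no independent test. The list holds 5 Rel-family subunits, 5 IkB family members, 4 IkB kinases and related subunits, 8 receptor-proximal signalling proteins, 3 feedback inhibitors and 11 target genes. The 36 were all found among the 32868 named genes of the table. After a filter on low counts 33 of them were tested among 10731 genes. The 3 others were Csf2, which encodes the cytokine GM-CSF and had 0 counts in each of the 11 libraries, Traf1, with 0 to 3 counts, and Tnfaip6, with 2 to 13 counts.

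The cells were primary fibroblasts from neonatal mouse lung, FACS-sorted, and their RNA was sequenced in bulk. Wild-type cells (WT) were set against cells lacking peptidylarginine deiminase 2 (PAD2KO), an enzyme that turns arginine residues of proteins into citrulline, in 2 batches. The libraries of batch 1 were PAD2KO 1, PAD2KO 2, PAD2KO 3, WT 1, WT 3 and WT 4, and those of batch 2 were PAD2KO 6, PAD2KO 7, WT 5, WT 6 and WT 7. The title of the series speaks of basal and TNF-induced expression. No label of any library names a treatment, and the sources used here give neither what differed between the batches nor the knockout's construction, the sorting gate or the age in days. Nor is it given there if replicates were different mice, so the p-values cover the spread among these samples alone, which may be technical.

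Libraries held 962633 to 1421243 counts of named genes, and 0 counts in a library allowed up to 2.10 to 3.20 CPM (counts scaled to the library total and between libraries), a limit that covers counting error only. Padi2 had 0 to 2 counts in each WT library and 0 to 4 in each PAD2KO library, too few to check the genotype labels. All 9 fibroblast markers had counts in each library. Their summed level was 11828 to 16463 CPM in batch 1 and 6149 to 7387 CPM in batch 2, though single markers did not all go the same way in PAD2KO. Epithelial markers summed to at most 2.10 CPM and endothelial markers to at most 14.9 CPM in any library. Single fibroblast markers, and the leukocyte, mesothelial and smooth muscle markers, which differed between batches, are given after the genotype comparisons. In bulk samples, fewer cells of a type and less RNA per cell cannot be told apart.

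The PAD2KO group of batch 2 had 2 libraries, and these differed from each other across the NF-kB genes. Of the 33 tested members, 26 were lower in PAD2KO 7 than in PAD2KO 6, with a median log2 difference of -0.54. Over all 10731 genes 50.5% were lower in PAD2KO 7 and the median was -0.004. Values of members and of named list genes that rest on these libraries are therefore given with both and with each left out in turn.

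Promoter sequence is shown first for 6 members on which the results below turn, because each carries a match to the kappaB consensus motif close to its start. Windows of 250 bases before the start from RefSeq on GRCm38.p6, a build other than that of the counts, were held for 28 of the 36 members. Both strands were searched with the spelled consensus, which is given here by name alone because its spelling needs ambiguity letters. A match lay in 11 of the 28 members (39.3%), against 10.4% of 8392 other tested genes with a window and 7.25% of all 32851 windows. The 11 were Csf1, Irf1, Nfkb2, Nfkbia, Nfkbie, Rel, Sod2, Tnfaip2, Tnfaip3, Tnip1 and Traf3. A match is a run of letters and not a measured binding site. In the stretches below capitals mark each match, with overlapping matches joined. Those of Nfkbia, Tnfaip3, Sod2, Rel and Csf1 avoid annotated exons, and for Nfkb2, where no stretch outside annotated exons near the start holds a whole match, a site of 30 bases is shown. They run 5′ to 3′ on the gene's strand.
Nfkbia, chr12:55492648-55492817, minus strand: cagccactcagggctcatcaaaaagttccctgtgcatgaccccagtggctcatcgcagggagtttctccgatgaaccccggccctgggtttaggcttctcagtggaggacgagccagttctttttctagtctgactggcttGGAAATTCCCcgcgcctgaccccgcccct
Tnfaip3, chr10:19015411-19015547, minus strand: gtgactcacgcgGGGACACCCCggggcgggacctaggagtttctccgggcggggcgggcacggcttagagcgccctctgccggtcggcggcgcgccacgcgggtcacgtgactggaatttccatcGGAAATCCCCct
Sod2, chr17:13007669-13007816, plus strand: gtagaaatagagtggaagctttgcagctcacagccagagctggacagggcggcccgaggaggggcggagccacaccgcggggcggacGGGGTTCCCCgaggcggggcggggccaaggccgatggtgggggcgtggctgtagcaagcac
Rel, chr11:23770971-23771139, minus strand: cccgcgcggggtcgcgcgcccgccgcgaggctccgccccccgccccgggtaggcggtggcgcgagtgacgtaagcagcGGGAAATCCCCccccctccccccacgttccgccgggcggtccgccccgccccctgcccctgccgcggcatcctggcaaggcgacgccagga
Csf1, chr3:107760470-107760639, minus strand: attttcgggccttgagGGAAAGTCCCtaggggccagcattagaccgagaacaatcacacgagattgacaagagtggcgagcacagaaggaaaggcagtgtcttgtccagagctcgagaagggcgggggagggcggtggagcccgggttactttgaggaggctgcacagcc
Nfkb2, chr19:46304689-46304718, plus strand: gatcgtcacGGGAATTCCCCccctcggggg
Tnfaip3 had separate matches at both ends of its stretch, and in Nfkbia the match ended 20 bases before the start. In WT cells 6 of the 11 members with a match were higher in batch 2 than in batch 1, namely Nfkb2, Nfkbia, Rel, Sod2, Tnfaip2 and Tnfaip3, and Csf1, Irf1, Nfkbie, Tnip1 and Traf3 did not pass the test there. Of the 14 tested members with a window and no match 6 were higher, and of the 8 tested without a window 3 were, against 11.5% of all genes.

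The batches were compared first within WT, where each side had 3 libraries. In batch 2, 15 of the 33 members were higher and 0 were lower by edgeR's quasi-likelihood test with Benjamini-Hochberg adjustment over all genes at 0.05. Across all genes 11.5% were higher and 10.1% were lower. The median log2 difference of the members was 0.66, against -0.003 over all genes. By role, 3 of 5 Rel-family subunits, 3 of 5 IkB family members, 1 of 4 kinase subunits, 1 of 7 receptor-proximal proteins, 2 of 3 feedback inhibitors and 5 of 9 targets were higher. For 18 members the WT libraries of batch 2 lay wholly above those of batch 1, and for 2, Chuk and Tnfaip8, wholly below. Over all genes these shares were 18.6% and 17.6%. With offsets from the deposited gene lengths 9 of the 15 passed, the calls lost being Bcl3, Birc3, Rel, Relb, Tnfaip2 and Tnfaip3. Leaving out a single WT library ended the call of Bcl3 (WT 4 or WT 6), Birc3 (WT 3), Rel (WT 3 or WT 6) and Relb (WT 1 or WT 7).

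**Figure D1:**
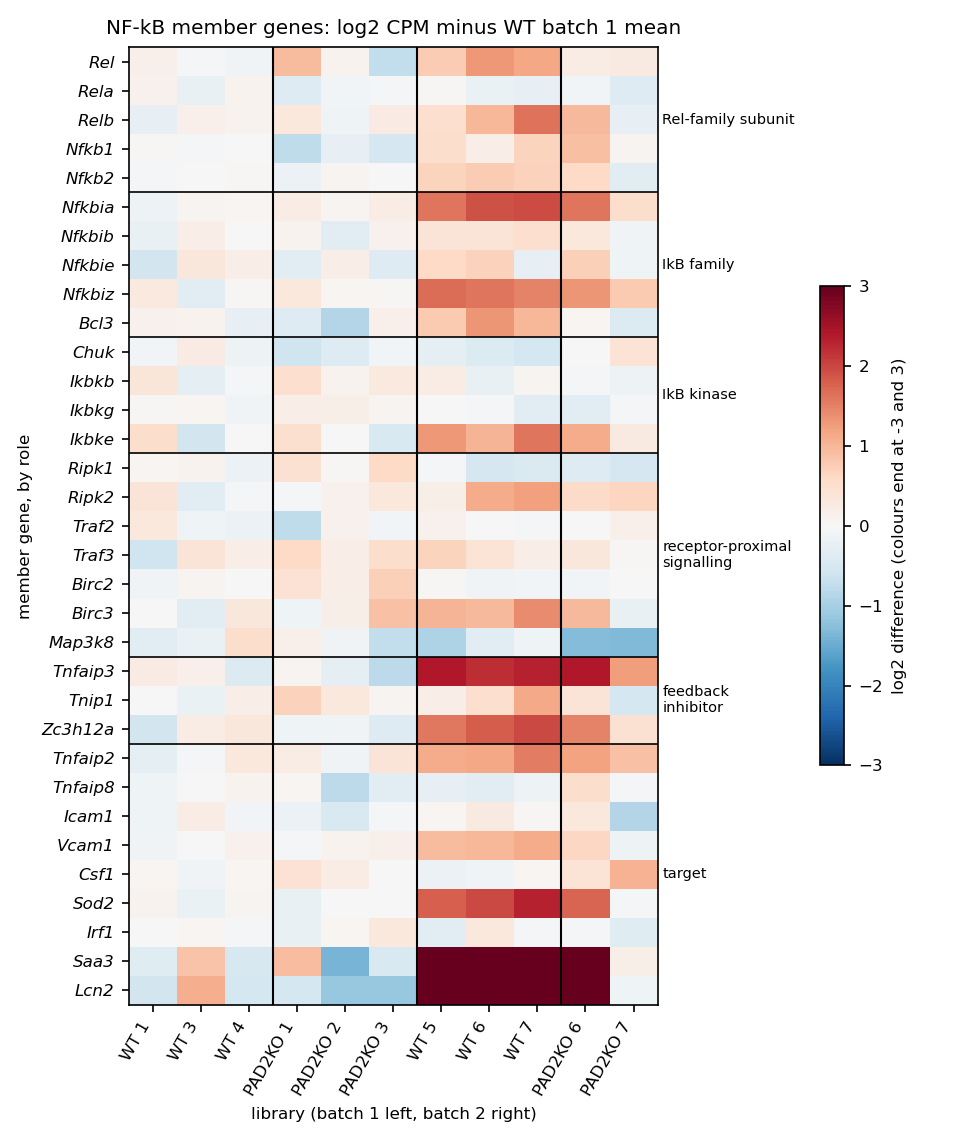
Level of each of the 33 tested members (rows, by role) in each library (columns) as log2 CPM minus the mean of the WT libraries of batch 1; black lines part the 4 groups and the roles. IkB family members, feedback inhibitors and targets such as Sod2, Saa3 and Lcn2 are red in WT 5, WT 6, WT 7 and PAD2KO 6 and paler in PAD2KO 7.

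Within PAD2KO, 7 of the 33 members were higher in batch 2 and 0 were lower, against 9.06% higher and 8.30% lower over all genes. The 7 were Nfkb1, Nfkbia, Nfkbiz, Tnfaip3, Zc3h12a, Tnfaip2 and Csf1. The median log2 difference of the members was 0.26, against -0.02 over all genes. Leaving out PAD2KO 6 left 3 members higher with a median of 0.02, and leaving out PAD2KO 7 left 9 with a median of 0.53. Without PAD2KO 2, 5 members were higher and 2 were lower, Birc2 at -0.65 and Ripk1 at -1.06 (log2, adjusted p = 0.048 and 0.031 by edgeR). The difference between the genotypes in their batch response is the interaction reported further on.

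Among the inhibitors, Nfkbia encodes IkB-alpha, which holds Rel dimers in the cytoplasm and is resynthesised when the pathway is active. In batch 1 it stood at 63.5, 75.9 and 74.5 CPM in WT 1, WT 3 and WT 4 and at 83.8, 75.0 and 82.8 CPM in PAD2KO 1, PAD2KO 2 and PAD2KO 3. Batch 2 values were 218, 272 and 282 CPM in WT 5, WT 6 and WT 7, and at 220.0 CPM in PAD2KO 6 and 104 CPM in PAD2KO 7. Every batch 2 library lay above every batch 1 library, and PAD2KO 7 was the lowest of batch 2. The log2 difference between batches was 1.84 ± 0.23 (SE, adjusted p = 7.6e-05 by edgeR) in WT and 1.01 ± 0.25 (adjusted p = 0.017) in PAD2KO. The PAD2KO value was 0.38 without PAD2KO 6 and 1.45 without PAD2KO 7, and the call was lost without PAD2KO 6 or without PAD2KO 2.

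Nfkbiz encodes IkB-zeta, a nuclear IkB protein that acts on secondary NF-kB targets. Its levels in batch 1 were 194, 128 and 162 CPM in WT and 198, 166 and 163 CPM in PAD2KO. In batch 2 they were 511, 486 and 451 CPM in WT, 401 CPM in PAD2KO 6 and 276 CPM in PAD2KO 7. The batches did not overlap in either genotype. The log2 difference was 1.58 ± 0.15 (SE, adjusted p = 4.6e-08 by edgeR) in WT and 0.95 ± 0.16 (adjusted p = 0.00023) in PAD2KO, and it passed whichever library was left out. The PAD2KO value was 0.67 without PAD2KO 6 and 1.19 without PAD2KO 7.

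Tnfaip3 encodes A20, a ubiquitin-editing enzyme that shuts off signalling from TNF receptors. It was close to the counting floor in batch 1, at 4.70, 4.30 and 2.40 CPM in WT and 3.99, 2.81 and 1.48 CPM in PAD2KO. Batch 2 values were 26.4, 22.9 and 24.5 CPM in WT, 26.2 CPM in PAD2KO 6 and 11.1 CPM in PAD2KO 7. The levels rested on 2 to 36 counts per library. PAD2KO 6 lay within the WT range of batch 2 and PAD2KO 7 between the batches. The log2 difference was 2.66 ± 0.40 (SE, adjusted p = 9.7e-06 by edgeR) in WT and 2.72 ± 0.47 (adjusted p = 0.00013) in PAD2KO. The PAD2KO value was 2.00 without PAD2KO 6 and 3.22 without PAD2KO 7, and passed in both cases. With length offsets neither call held, and the PAD2KO value was 1.73. In TPM the group means were 3.27 ± 3.45 and 6.58 ± 0.605 (SD, n = 3 each) in WT of batch 1 and 2, a smaller contrast than in CPM.

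Zc3h12a encodes Regnase-1, an endonuclease that degrades inflammatory mRNAs. Its batch 1 levels were 3.14, 6.45 and 7.21 CPM in WT and 4.79, 4.91 and 3.70 CPM in PAD2KO. Batch 2 levels were 19.1, 22.9 and 25.6 CPM in WT, 18 CPM in PAD2KO 6 and 7.93 CPM in PAD2KO 7. All batch 2 libraries were above all batch 1 libraries, with PAD2KO 7 the nearest to batch 1. The log2 difference was 1.97 ± 0.37 (SE, adjusted p = 0.00021 by edgeR) in WT and 1.51 ± 0.45 (adjusted p = 0.021) in PAD2KO. The PAD2KO value was 0.83 without PAD2KO 6 and 1.99 without PAD2KO 7. Its call was lost without PAD2KO 6, without PAD2KO 3 and with DESeq2. The third feedback inhibitor, Tnip1, which binds A20, had 13.5 to 45.8 CPM over the 11 libraries and did not pass in any of the comparisons.

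**Figure D2:**
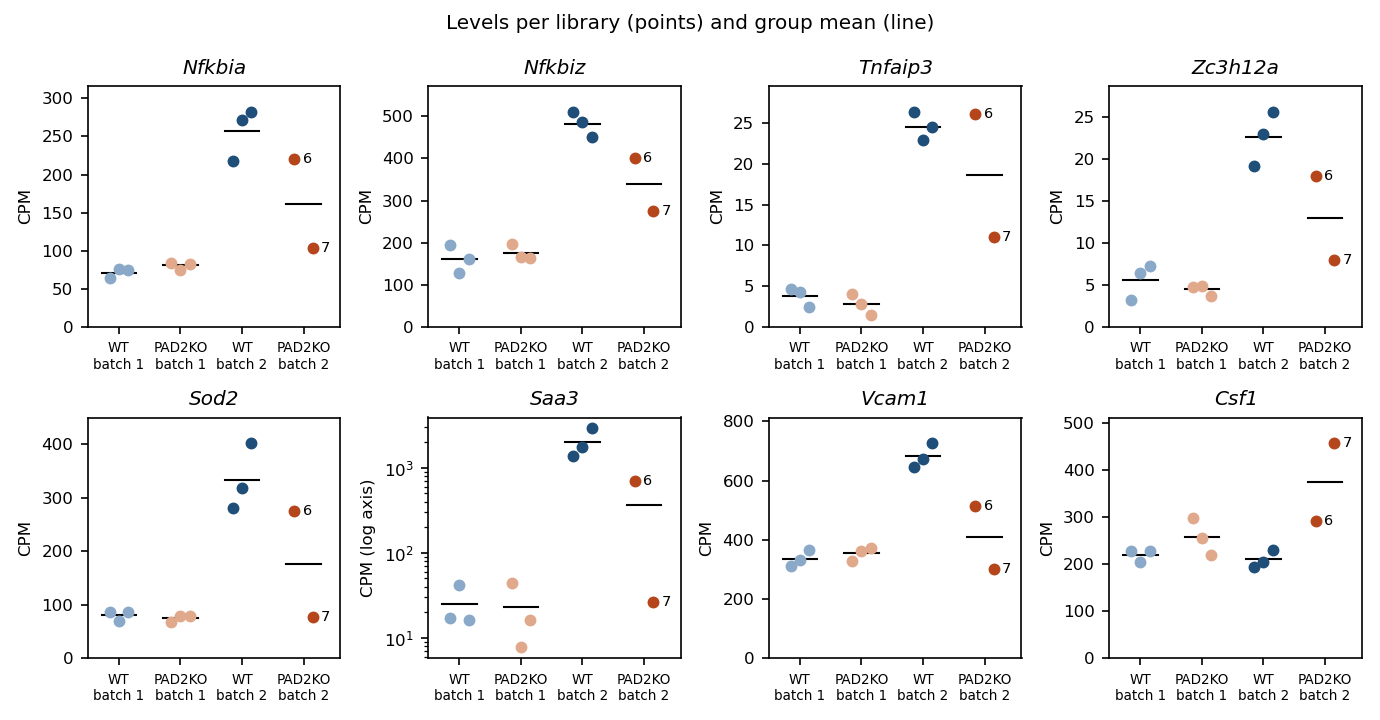
CPM of 8 members in each library (points) with the group mean (line), for WT and PAD2KO in batch 1 and batch 2; the Saa3 axis is logarithmic, the others start at 0, and the numbers 6 and 7 mark the PAD2KO libraries of batch 2. For all 8, PAD2KO 6 lies nearer to the WT mean of batch 2 than PAD2KO 7 does.

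Of the targets, Sod2 encodes the mitochondrial superoxide dismutase. It stood at 87.0, 69.5 and 85.7 CPM in WT and 68.6, 79.3 and 79.1 CPM in PAD2KO in batch 1. Its batch 2 levels were 281, 319 and 402 CPM in WT, 275 CPM in PAD2KO 6 and 77.7 CPM in PAD2KO 7. PAD2KO 7 thus lay inside the range of the batch 1 PAD2KO libraries, and PAD2KO 6 just under the lowest WT library of its batch. The log2 difference between batches was 2.04 ± 0.42 (SE, adjusted p = 0.011 by edgeR) in WT. In PAD2KO it was 1.21 ± 0.47 (adjusted p = 0.13), 0.05 without PAD2KO 6, and 1.86 without PAD2KO 7, which passed.

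Saa3 encodes an acute-phase serum amyloid A made outside the liver as well. Batch 1 levels were 17.2, 42.3 and 16.0 CPM in WT and 44.7, 7.71 and 16.3 CPM in PAD2KO. Batch 2 levels were 1378, 1733 and 2898 CPM in WT, 699 CPM in PAD2KO 6 and 26.2 CPM in PAD2KO 7. The WT libraries of batch 2 did not come near those of batch 1, while PAD2KO 6 lay between them, below each WT library of batch 2, and PAD2KO 7 lay within the range of batch 1. The log2 difference was 6.28 ± 1.19 (SE, adjusted p = 0.0080 by edgeR) in WT and 4.01 ± 1.26 (adjusted p = 0.073) in PAD2KO. The PAD2KO value was 4.97 and passed (adjusted p = 0.0083) without PAD2KO 7, was 0.24 and did not pass without PAD2KO 6, and was 3.99 and passed with DESeq2 (adjusted p = 0.0081). By TPM (the authors' level scaled to transcript length and library total) Saa3 ranked 1500 among all named genes in WT of batch 1 and 4 in WT of batch 2, with a mean of 6827 TPM. Saa1 and Saa2 are close relatives, and how the authors' counting split reads among them is uncertain.

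Lcn2 encodes lipocalin-2, which binds bacterial iron carriers. In batch 1 it had 1, 8 and 1 counts in WT 1, WT 3 and WT 4, and 1, 0 and 0 counts in PAD2KO 1, PAD2KO 2 and PAD2KO 3. In batch 2 it had 111, 159 and 330.4 CPM in WT, 37.6 CPM in PAD2KO 6 and 1.59 CPM in PAD2KO 7. The last value is under the counting floor. The log2 difference in WT was 6.21 ± 1.00 (SE, adjusted p = 0.0036 by edgeR). In PAD2KO, where PAD2KO 6 held 46 of the 48 counts of batch 2, it was 5.81 ± 2.32 (adjusted p = 0.15) and did not pass. It did not pass without PAD2KO 6 (2.29) or without PAD2KO 7 (6.77) either, and passed with DESeq2 (6.203, adjusted p = 0.0083) and with length offsets (5.73, adjusted p = 0.034). Since batch 1 had 1 count in PAD2KO, these fitted values depend on the fit's handling of low counts.

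Vcam1 encodes an adhesion molecule that captures leukocytes through their integrins, and was the member with the highest mean TPM in WT of batch 1, at 144 ± 24.8 TPM (SD, n = 3). In CPM it stood at 313, 332 and 365 in WT and 329, 363 and 371 in PAD2KO in batch 1. In batch 2 it stood at 647, 673 and 726 CPM in WT, 514 CPM in PAD2KO 6 and 302 CPM in PAD2KO 7. WT libraries of batch 2 were above all others and PAD2KO 7 was below all others. The log2 difference between batches was 1.02 ± 0.14 (SE, adjusted p = 9.6e-06 by edgeR) in WT and 0.20 ± 0.15 (adjusted p = 0.42) in PAD2KO. The PAD2KO value was 0.54 without PAD2KO 7, which passed (adjusted p = 0.014), and -0.22 without PAD2KO 6, which did not.

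Tnfaip2 encodes a TNF-induced protein of cell protrusions. Its levels were 22.7, 27.2 and 35.2 CPM in WT and 32.7, 25.9 and 37.0 CPM in PAD2KO in batch 1. They were 62.4, 64.0 and 84.2 CPM in WT, 66.3 CPM in PAD2KO 6 and 52.3 CPM in PAD2KO 7 in batch 2. Here both PAD2KO libraries of batch 2 were above all 6 libraries of batch 1. The log2 difference was 1.29 ± 0.20 (SE, adjusted p = 2.5e-05 by edgeR) in WT and 0.90 ± 0.22 (adjusted p = 0.0056) in PAD2KO, a call lost without PAD2KO 6 (0.73) and kept without PAD2KO 7 (1.06). The remaining targets Icam1, Irf1 and Tnfaip8 did not pass in any comparison. Icam1, an adhesion molecule, spanned 40.4 CPM in PAD2KO 7 to 94.1 CPM in PAD2KO 6, and Irf1, a transcription factor of the interferon response, spanned 30.9 to 50.3 CPM. Tnfaip8, an apoptosis regulator, spanned 15.4 to 40.1 CPM.

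**Figure D3:**
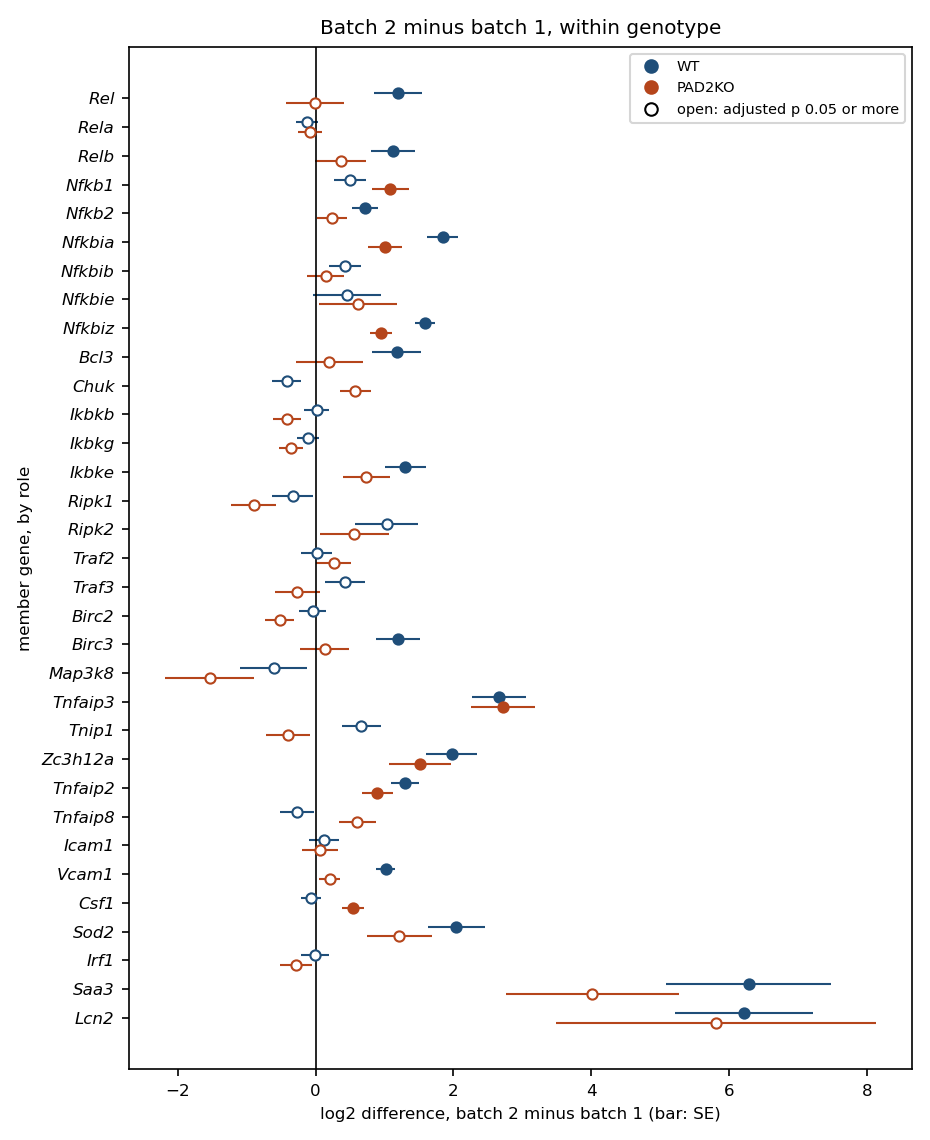
Log2 difference of batch 2 minus batch 1 for each of the 33 tested members (rows, by role) in WT and in PAD2KO, with the SE as a bar; filled points passed an adjusted p of 0.05. The filled WT points number 15 and the filled PAD2KO points 7, and all lie to the right of 0.

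Rel-family subunits differed among themselves. Nfkb2 encodes p100, the precursor of the p52 subunit of the non-canonical pathway. Its batch 1 levels were 43.9, 44.4 and 45.6 CPM in WT and 39.1, 47.0 and 45.1 CPM in PAD2KO. Its batch 2 levels were 71.9, 76.6 and 72.5 CPM in WT, 68.7 CPM in PAD2KO 6 and 34.9 CPM in PAD2KO 7, the lowest of all 11 libraries. The log2 difference in WT was 0.72 ± 0.19 (SE, adjusted p = 0.0057 by edgeR).

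Nfkb1 encodes p105, the precursor of the p50 subunit. It had 27.4, 25.8 and 27.2 CPM in WT and 15.2, 22.4 and 18.5 CPM in PAD2KO in batch 1. The batch 2 values were 39.6, 30.8 and 43.7 CPM in WT, 51.5 CPM in PAD2KO 6 and 28.5 CPM in PAD2KO 7. The PAD2KO libraries were the lowest of batch 1, and in batch 2 they lay on either side of the WT libraries. The log2 difference between batches was 1.08 ± 0.27 (SE, adjusted p = 0.0047 by edgeR) in PAD2KO, where it was 0.61 and did not pass without PAD2KO 6 and was 1.45 without PAD2KO 7, and 0.49 ± 0.23 (adjusted p = 0.14) in WT. Rel, which encodes c-Rel, was higher in WT of batch 2 by 1.19 and Relb, the partner of p52, by 1.13, over ranges of 5.17 to 26.1 and 14.1 to 56.5 CPM. Rela, which encodes the p65 subunit, was the Rel-family member with the highest mean TPM in WT of batch 1 (39.3 ± 7.40, SD, n = 3), ranged from 56.3 to 80.7 CPM and did not pass in any comparison.

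Of the other IkB family members, Bcl3, a nuclear partner of p50 and p52, ranged from 3.51 to 22.1 CPM and was higher in WT of batch 2 by 1.17 on the log2 scale. Nfkbib (IkB-beta) ranged from 17.5 to 32.0 CPM and Nfkbie (IkB-epsilon) from 3.14 to 9.82 CPM, and neither passed in any comparison. In the kinase complex Chuk (IKK-alpha), Ikbkb (IKK-beta) and Ikbkg (the scaffold NEMO) ranged from 25.5 to 52.3, 45.8 to 80.6 and 47.4 to 70.2 CPM, with no call. Ikbke, the non-canonical kinase IKK-epsilon, had 38.4, 17.2 and 26.4 CPM in WT and 36.7, 25.9 and 18.5 CPM in PAD2KO in batch 1. In batch 2 it had 66.8, 54.5 and 82.1 CPM in WT, 58.1 CPM in PAD2KO 6 and 31.7 CPM in PAD2KO 7. PAD2KO 7 lay within the range of batch 1. The log2 difference in WT was 1.303 ± 0.30 (SE, adjusted p = 0.0045 by edgeR).

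Among the receptor-proximal proteins Birc3, the ubiquitin ligase cIAP2, was the member that passed. It had 14.1, 10.7 and 18.4 CPM in WT and 12.8, 16.1 and 27.3 CPM in PAD2KO in batch 1. The batch 2 levels were 30.1, 29.2 and 40.5 CPM in WT, 29.4 CPM in PAD2KO 6 and 11.9 CPM in PAD2KO 7. The WT batches were apart, while PAD2KO 7 was below all 3 PAD2KO libraries of batch 1. The log2 difference in WT was 1.19 ± 0.32 (SE, adjusted p = 0.0083 by edgeR). Its paralog Birc2 (cIAP1) ranged from 32.1 to 58.4 CPM, and the kinases Ripk1, Ripk2 and Map3k8 from 11.1 to 25.9, 3.58 to 13.9 and 2.38 to 12.8 CPM. The adaptors Traf2 and Traf3 ranged from 18.4 to 40.0 and 8.62 to 22.8 CPM. These 6 did not pass in any comparison.

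In batch 1 the genotypes were then compared. Of the 33 members 0 passed, where 0.112% of all genes did (12 genes, either direction). At an unadjusted p under 0.05, where 5.34% of all genes lay, there was 1 member, Birc2, at 0.48 ± 0.19 (log2, SE, adjusted p = 0.75 by edgeR), and DESeq2 also called 0 members. The median log2 difference was -0.01 and 16 of 33 were positive. The PAD2KO libraries lay wholly above WT for Birc2 and Ikbkg and wholly below for Nfkb1, against 5.53% and 5.85% of all genes. The 95% interval of a difference was taken from its SE by a normal approximation, which can be too narrow with few libraries. Where this interval was narrow, it still held changes of some size: it ran from -0.20 to 0.35 for Vcam1 and from -0.31 to 0.66 for Nfkbia.

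In batch 2, 1 member was higher in PAD2KO (Csf1) and 1 was lower (Vcam1), where 1.28% of all genes were higher and 1.64% lower. At an unadjusted p under 0.05 by edgeR there were 11 members, against 14% of all genes. The median log2 difference of the members was -0.31, with 5 of 33 positive, against -0.007 over all genes. PAD2KO libraries lay wholly below WT for 11 members, namely Bcl3, Lcn2, Map3k8, Nfkb2, Nfkbib, Nfkbiz, Rel, Saa3, Sod2, Vcam1 and Zc3h12a, and wholly above for Chuk, Csf1 and Tnfaip8. Over all genes 15.4% lay wholly below and 15.2% wholly above.

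Csf1 encodes M-CSF, the growth factor of macrophages, for which fibroblasts are a known source. It stood at 227, 204 and 227 CPM in WT and 298, 256 and 219 CPM in PAD2KO in batch 1, and at 195, 205 and 230.2 CPM in WT, 292 CPM in PAD2KO 6 and 457 CPM in PAD2KO 7 in batch 2. PAD2KO 7 was the highest of all libraries, and PAD2KO 6 lay within the batch 1 PAD2KO range. The log2 difference between genotypes in batch 2 was 0.84 ± 0.16 (SE, adjusted p = 0.0032 by edgeR), 1.14 without PAD2KO 6, and 0.48 without PAD2KO 7, when it did not pass. Csf1 was also higher in batch 2 than in batch 1 within PAD2KO, by 0.54 ± 0.15 (adjusted p = 0.017), with overlapping libraries, a call lost without PAD2KO 7 (0.18), PAD2KO 2 or PAD2KO 3 and kept without PAD2KO 6 (0.84).

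Vcam1 was lower in PAD2KO in batch 2, falling by 0.74 ± 0.16 on the log2 scale (SE, adjusted p = 0.0092 by edgeR), with the levels given above. The value was -0.40 without PAD2KO 7 and -1.16 without PAD2KO 6. It did not pass without PAD2KO 7 or without WT 7. The difference between its genotype effects in the 2 batches was -0.82 ± 0.21 (adjusted p = 0.054), -1.24 without PAD2KO 6 and -0.48 without PAD2KO 7.

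**Figure D4:**
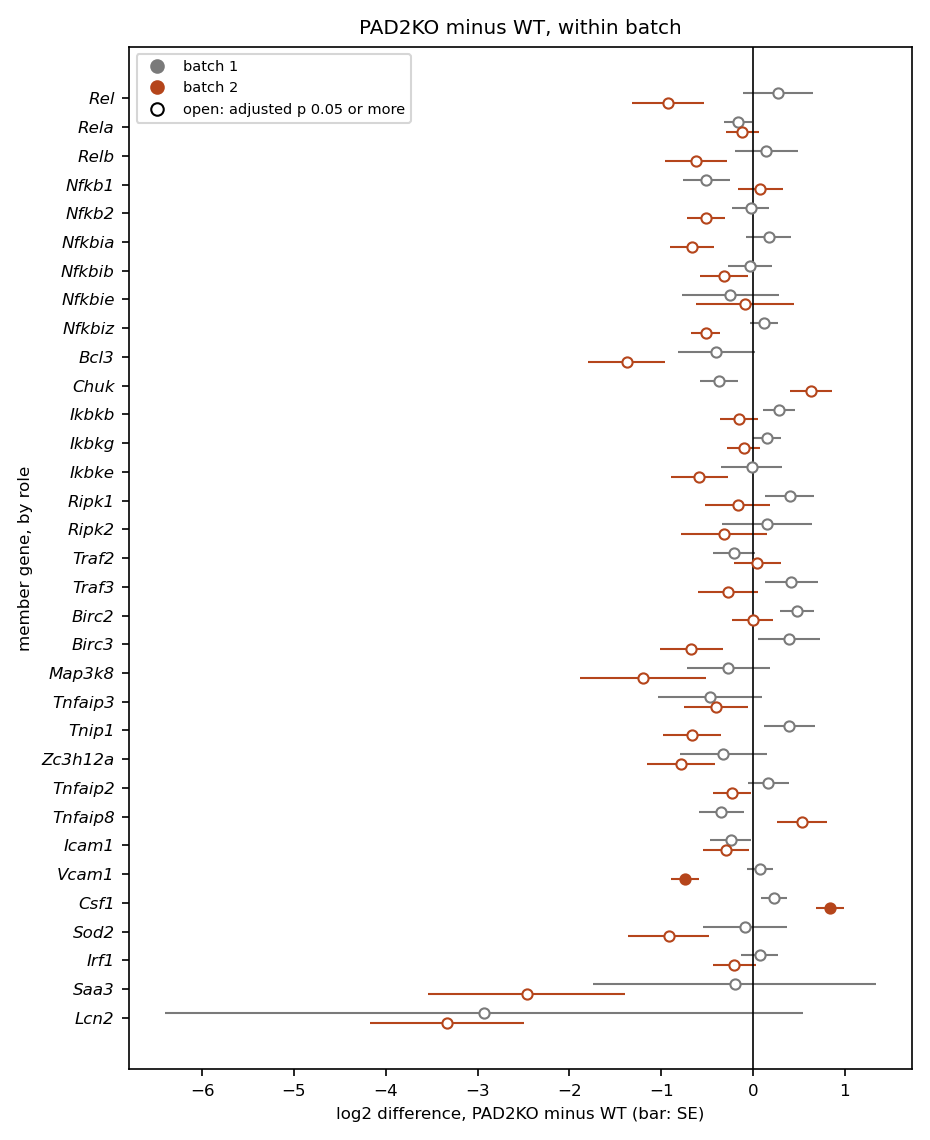
Log2 difference of PAD2KO minus WT for each of the 33 tested members (rows, by role) in batch 1 and in batch 2, with the SE as a bar; filled points passed an adjusted p of 0.05. Csf1 (0.84) and Vcam1 (-0.74) in batch 2 are the filled points, and 28 of the 33 batch 2 points lie at or left of 0.

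With batch as a term and both batches together, 0 of 33 members differed between the genotypes, where 0.158% of all genes did. At an unadjusted p under 0.05 there were 4, against 7.6% of all genes, and DESeq2 called 0. The median of the members was -0.17, -0.20 without PAD2KO 6 and -0.05 without PAD2KO 7, with 0 members passing in each case. In the test of whether the genotype effect differed between batches, 0 of 33 members passed, against 1.44% of all genes. At an unadjusted p under 0.05 there were 9 members, against 11.2% of all genes, and DESeq2 called 1, Vcam1. Without PAD2KO 6 that test called 5 members, Csf1, Nfkbia, Nfkbiz, Sod2 and Vcam1, and without PAD2KO 7 it called 0. The genotype comparison of batch 2 and the batch comparison of WT share WT 5, WT 6 and WT 7, so their values are not independent.

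The 2 PAD2KO libraries of batch 2 were therefore described singly, without a test. For the 15 members that were higher in WT of batch 2, PAD2KO 6 was above all 3 PAD2KO libraries of batch 1 for 13 and below all 3 WT libraries of batch 2 for 9. PAD2KO 7 was above the former for 6 and below the latter for 15. Over the 1235 genes that were higher in WT of batch 2, PAD2KO 6 was above for 82.1% and below for 46.8%, and PAD2KO 7 was above for 75.7% and below for 51.5%. Members and genes were both picked here by high values in these same WT libraries, which raises the counts and shares below them. Leaving out PAD2KO 7, 0 members differed between genotypes in batch 2 and the median was -0.11. Leaving out PAD2KO 6, 1 member was higher and 7 were lower (Icam1, Nfkb2, Nfkbia, Nfkbiz, Saa3, Sod2 and Vcam1), with a median of -0.74. With 1 library in the group, its spread is assumed to be that of the other groups.

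**Figure D5:**
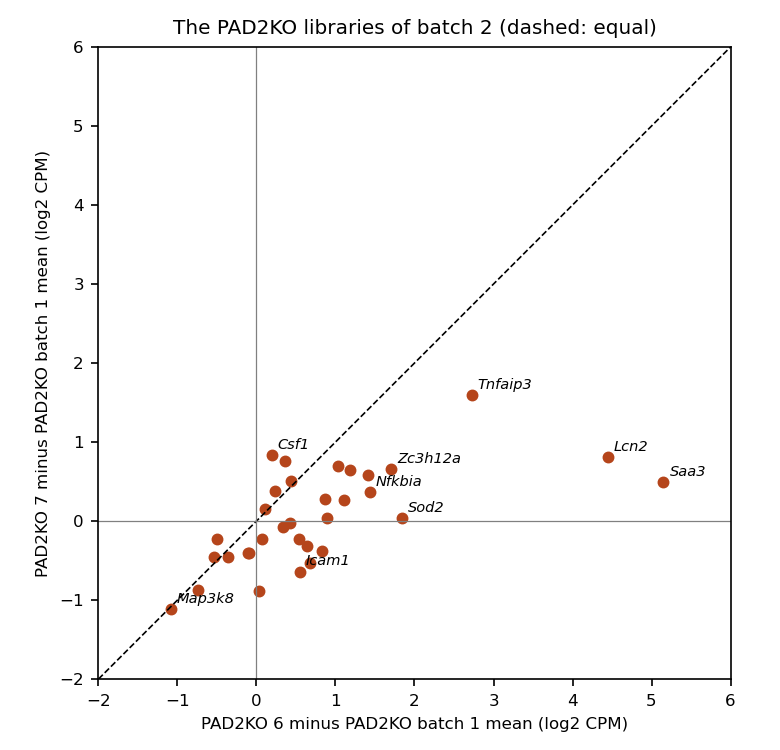
Each of the 33 tested members (points) by its log2 CPM in PAD2KO 6 (x axis) and in PAD2KO 7 (y axis), both minus the mean of the PAD2KO libraries of batch 1; the dashed line marks equal values. Saa3 (5.15 and 0.49), Lcn2 (4.44 and 0.81) and Sod2 (1.84 and 0.04) lie far under the line, and Csf1 (0.19 and 0.84) lies above it.

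Markers of other cells were read beside these values. The 12 leukocyte markers summed to 25.6 to 72.9 CPM in WT and 34.4 to 68.6 CPM in PAD2KO in batch 1, and to 259.8 to 397 CPM in WT, 168 CPM in PAD2KO 6 and 101 CPM in PAD2KO 7 in batch 2. Of 6 tested, 2 were higher in batch 2 in both genotypes, Cd14, a receptor for bacterial lipopolysaccharide, and S100a8, a subunit of calprotectin. S100a8 had 0 counts over the WT libraries of batch 1 and 420 over those of batch 2. The pan-leukocyte marker Ptprc had 7, 6, 4 and 3 counts in all in WT of batch 1, PAD2KO of batch 1, WT of batch 2 and PAD2KO of batch 2. The T cell marker Cd3e had 1 count over all libraries. Between genotypes in batch 2, 1 of the 6 was lower in PAD2KO, Cd14, with a log2 difference of -0.96. The Cd14 value was -1.23 without PAD2KO 6 and -0.72 without PAD2KO 7, when it did not pass. S100a8 did not pass with both libraries, at -1.77, and stood at -2.46 without PAD2KO 6 and -1.29 without PAD2KO 7.

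The 3 mesothelial markers summed to 148 to 264 CPM in WT and 53.3 to 196 CPM in PAD2KO in batch 1, and to 14.2 to 19.1 CPM in WT, 46.6 CPM in PAD2KO 6 and 23.8 CPM in PAD2KO 7 in batch 2. All 3 were lower in WT of batch 2 (median log2 difference -3.70) and 1 of 3 was lower in PAD2KO, Lrrn4. The 5 smooth muscle and pericyte markers summed to 928 to 1303 CPM in the libraries of batch 1, and to 248 to 359 CPM in WT, 604 CPM in PAD2KO 6 and 648 CPM in PAD2KO 7 in batch 2. The 3 tested, Cnn1, Des and Myh11, were lower in WT of batch 2 (median -1.87), and Des and Myh11 were lower in PAD2KO. Within batch 2, Cnn1 (1.26) and Myh11 (1.79) of these and the mesothelial marker Msln (3.56) were higher in PAD2KO than in WT. Cnn1 passed with either PAD2KO library left out, Myh11 did not pass without PAD2KO 7, and Msln did not pass with either left out. The calls of Lrrn4, Des and Myh11 between batches in PAD2KO were lost with either library left out. Of the 9 fibroblast markers, 0 were higher and 4 lower in batch 2 in WT, and 2 were higher and 5 lower in PAD2KO. Between genotypes in batch 2, Dcn (-1.56) and Col3a1 (-0.55) were lower in PAD2KO and Thy1 (0.85) was higher. Without PAD2KO 6 these values were -1.97, -0.49 and 0.79, and without PAD2KO 7 they were -1.22, -0.59 and 0.93. Each of these fits left 1 PAD2KO library in batch 2, so the values do not show that the 3 calls hold. The part of other cells in the differences of the NF-kB genes was not tested.

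Genes of the pathway that are not members were read from lists, also chosen with earlier results of these data known. TNF itself had 1 count in PAD2KO of each batch and 0 in WT. Of 7 tested genes among TNF family ligands and upstream receptors, 1 differed between genotypes, Tnfrsf1b, which encodes TNF receptor 2. It was lower in PAD2KO, falling by 1.10 ± 0.19 (log2, SE, adjusted p = 0.0073 by edgeR) in batch 1 and by 2.01 ± 0.22 (adjusted p = 2.5e-06) in batch 2. The batch 2 value was -2.10 without PAD2KO 6 and -1.91 without PAD2KO 7, and passed in both cases. Tnfrsf1b means were 64.4 ± 3.59 and 97.0 ± 21.2 CPM (SD, n = 3 each) in WT of batch 1 and 2, and 30.01 ± 6.04 (n = 3) and 23.8 ± 2.24 CPM (n = 2) in PAD2KO.

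Of 19 receptor adaptors and kinases 2 were higher in WT of batch 2, Irak3, an inhibitory kinase of the interleukin-1 receptor pathway, by 1.26 and Tank, an adaptor of IKK-epsilon, by 0.94. Irak3 was lower in PAD2KO in batch 2, at -1.23 ± 0.30 (log2, SE, adjusted p = 0.019 by edgeR), -1.82 without PAD2KO 6 and -0.79 without PAD2KO 7, when it did not pass. In PAD2KO, Tank was higher in batch 2 by 0.55 and Map3k14, the kinase NIK, was lower, at -1.24. The Tank call was lost with either PAD2KO library of batch 2 left out, and that of Map3k14 without PAD2KO 6 (-0.81). Of 16 tested ubiquitin-editing proteins and inhibitors, Cflar was higher and Tax1bp1 and Tnip2 were lower in WT of batch 2. Cflar was higher and Tnip2 lower in PAD2KO as well, the latter call being lost without PAD2KO 7 (-0.92).

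Of 18 tested further NF-kB targets that are neither cytokines nor chemokines, 11 were higher and 1 was lower in WT of batch 2, and 8 were higher and 1 was lower in PAD2KO of batch 2. Without PAD2KO 6 these PAD2KO counts were 7 and 0, and without PAD2KO 7 they were 9 and 1. The summed level of the 22 listed was 2246 to 2813 CPM in the libraries of batch 1, and 7805 to 8427 CPM in WT, 6932 CPM in PAD2KO 6 and 4493 CPM in PAD2KO 7 in batch 2. Ier3, an early-response survival gene, was higher by 2.20 ± 0.14 in WT and 1.73 ± 0.15 in PAD2KO (log2, SE, adjusted p = 4.6e-12 and 3.3e-09 by edgeR). Ptges, a prostaglandin E synthase, was higher by 2.18 and 2.21. Both genes passed in PAD2KO without PAD2KO 6 (1.45 for Ier3 and 1.84 for Ptges) and without PAD2KO 7 (1.98 and 2.53). Between genotypes in batch 2, 1 of the 18 passed, the complement gene Cfb, which had 48 counts in WT and 0 in PAD2KO. That call was lost with either PAD2KO library left out. The median log2 difference of the 18 was -0.52, -0.82 without PAD2KO 6 and -0.22 without PAD2KO 7. For Ier3 these values were -0.45, -0.74 and -0.20, and for Ptges -0.13, -0.51 and 0.18. Steap4, which did not pass with both PAD2KO libraries, stood at -2.28, -4.45 and -1.43.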

How the data were processed

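RNA of sorted fibroblasts was made into SmartSeq2 libraries with a SMARTer kit, per the labels' protocols. Reads so amplified carry no molecular identifiers. Tools named in the submitters' processing notes are Salmon 1.3.2, DESeq2 1.46.0 and fastp, with the build GRCm39. The authors deposited 1 table with estimated counts, TPM and effective gene lengths for each library, per the file headers. The sources used here do not say whether counting used strand.

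Of 56065 entries, 23133 had no symbol (3.80% to 6.40% of counts) and were left out. The rest were summed to 32868 symbols and rounded to whole numbers. edgeR 4.0.16 in R 4.3.3 was run with filterByExpr on the 4 groups of genotype and batch, TMM scaling and robust quasi-likelihood tests, two-sided. The samples were fitted as 4 groups, or as batch plus genotype for both batches together, with Benjamini-Hochberg adjustment at 0.05. The common biological coefficient of variation was 0.120. CPM are counts relative to TMM-scaled totals, and log2 CPM used a prior count of 2. Sequences came from RefSeq windows. Figures used Python 3.11.15.

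The members and lists were chosen with earlier results of these data known. Values in every library are given for the 14 members with the smallest adjusted p in any comparison among those that passed, and other members by range. A few genes of each other list are named. Alternatives were DESeq2 1.42.0, median-ratio size factors, other count filters, length offsets, fits of 1 batch or genotype, a replicate block and leaving out each library. On simulated counts over 10490 genes, the test in batch 2 called 10.4% of genes given a log2 change of 0.5, 79.1% at 1 and 100% at 2. For the WT batch comparison, over 10477 genes, these were 20.9%, 92.5% and 100%. The simulation gave every gene the same spread and changed only genes above a limit on the mean count. Its shares therefore do not hold for members with a wider spread, such as Saa3 and Lcn2, or with few counts. WT 5 and WT 6 were the most alike pair, their counts giving 1.51 chi-square units per degree of freedom against 2.10 to 3.18 in other pairs of a group, and were kept as separate libraries.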

Additional observations from a re-analysis of the deposited data

How the results depend on the processing

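Counts of members that passed moved with the settings as follows. For PAD2KO against WT in batch 2, the count of 2 became 4 with no count filter, 0 with gene length offsets and 1 with only the libraries of batch 2, and ran from 0 (without PAD2KO 7) to 8 (without PAD2KO 6) when 1 library was left out. Over both batches, the count of 0 became 1 (Csf1) with no count filter. For the difference of the genotype effect between batches, the count of 0 became 1 (Vcam1) with DESeq2, 4 with no count filter and 1 (Vcam1) with the count filter on genotype, and ran from 0 to 5 with 1 library left out. For batch 2 against batch 1 in WT, the count of 15 became 9 with length offsets and ran from 13 to 17 with 1 library left out. In PAD2KO the count of 7 ran from 3 (without PAD2KO 6) to 9 (without PAD2KO 7), and without PAD2KO 2 it held 5 higher and 2 lower. In batch 1 the genotype count was 0 in every setting run. No called value changed sign.

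Over all genes, calls in batch 1 went from 12 to 58 with no filter, 2 with length offsets and 22 with only that batch. In batch 2 they went from 313 to 529 with no filter and 91 with length offsets. Over both batches they went from 17 to 31 with DESeq2, 142 with no filter and 2 with length offsets, and for the interaction from 155 to 323 and 26 with the latter settings. Between batches in WT they went from 2315 to 1409 with length offsets, and in PAD2KO from 1863 to 1216 with DESeq2 and 858 with length offsets. With 1 library left out they ran from 3 (without WT 3) to 20 in batch 1, from 61 (without PAD2KO 7) to 373 in batch 2, from 8 (without WT 3) to 25 over both batches, from 34 (without PAD2KO 7) to 222 for the interaction, from 1815 to 2377 between batches in WT and from 1074 (without PAD2KO 7) to 1999 in PAD2KO. The causes were not tested.

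A replicate block on the number in the titles gave 0 members in batch 1, 2 in batch 2, 0 over both batches and 0 for the interaction. It moved the calls over all genes from 17 to 8 over both batches and from 155 to 102 for the interaction. Deviations of same-numbered libraries from their group means correlated at 0.01 to 0.04, and those of other pairs at -0.08 to 0.13. With so few libraries in a group, these values cannot settle whether same-numbered samples share more than a number. The batch comparisons allow no such block, since each number falls in 1 batch. Depth limits the low genes: Tnfaip3, Zc3h12a, Lcn2, Map3k8 and Nfkbie had libraries under 5 counts.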

Other observations

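Levels per length, by the authors' TPM, placed the members differently in the batches. In WT of batch 1 the order of mean TPM began with Vcam1 at 144 ± 24.8, Saa3 at 92.8 ± 57.5, Csf1 at 90.1 ± 5.99, Sod2 at 89.1 ± 17.3 and Nfkbia at 83.3 ± 8.35 (SD, n = 3 each). The ranges of mean ± SD of Saa3, Csf1, Sod2 and Nfkbia overlapped each other, and that of Saa3 also overlapped that of Vcam1. In WT of batch 2 the order began with Saa3 at 6827 ± 2529, Sod2 at 370.1 ± 102, Lcn2 at 331 ± 186, Nfkbia at 298 ± 46.8 and Vcam1 at 256 ± 12.2. There the ranges of mean ± SD of Sod2, Lcn2, Nfkbia and Vcam1 overlapped each other. In PAD2KO of batch 2 the means of Saa3, 1300 ± 1714 TPM, and Sod2, 190.0 ± 150 TPM (SD, n = 2 each), had spreads near or above the mean itself.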
